A study of Schizosaccharomyces pombe with 4 samples.

Results

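The 749 array probes with the least new histone H3, out of 37351 internal probes of fission yeast chromosomes I to III, make up the regions described here. Each probe had 4 values, the log2 ratio of H3-T7 ChIP to input on each array minus that array's median. The 4 values were averaged, a running median over 3 neighbouring probes was taken, and the lowest 2% were kept (2.01% of the internal probes; the whole series had 41020 probes in use). Internal probes lay over 125 kb from the tiled ends and outside the blocks left out around the centromeres and the mating-type region. The running median at the threshold was -0.776, which is 1.71-fold below the array median. The members just inside it had values of -0.7759 to -0.7763 and the probes just outside -0.7754 to -0.7746, so the boundary cuts a continuous distribution. Because the levels chose the members, the levels below are a description and carry no test.

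The cells were Schizosaccharomyces pombe with the cdc25-22 allele, grown at 26 °C and held at G2/M for 4 h at 36 °C. Then 1 µM β-estradiol for 2 h switched on Cre recombinase, which exchanged the HA tag on H3 for T7, so that only H3 made afterwards was precipitated. DNA from the precipitate carried Cy5 and whole-cell extract DNA carried Cy3, and both were hybridized to 60-nt probes spaced every 300 bp, from chromatin sheared to about 1000 bp. There were 4 groups of 1 array each: clr3-CDx2 ON, wt ON, clr3-CDx2 OFF and wt OFF. All 4 carried the H3T7 tag-exchange genotype and cdc25-22, and the clr3-CDx2 arrays the clr3-CDx2 allele as well, whose nature the labels do not state. In ON cells, TetR-Clr4 under a thiamine-repressible promoter was expressed for 20 generations without thiamine in cells with the reporter tetO-ade6+. In OFF cells, 5 µg/ml thiamine and 2.5 µg/ml tetracycline were present. There were no replicates within a group, and all 4 arrays lay on 1 slide. Tethering and medium cannot be told apart in ON against OFF.

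Nucleosomes are taken apart and rebuilt throughout the cell cycle, and outside S phase new H3 enters mainly where old histones have been displaced, for example at promoters and over actively transcribed genes. Clr4 methylates lysine 9 of H3, the mark of fission yeast heterochromatin, and Clr3 removes acetyl groups from histones as part of SHREC. In heterochromatin both act to limit exchange of histones. Total H3 was not measured, so little new H3 and little H3 of any age cannot be told apart here.

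The sequences below are examples from long genes and from tRNA genes at low runs, not a cross-section of the members. Of the 749 members, 2 (0.267%) lay inside a tRNA gene and 21 (2.80%) within 300 bp of one. The first 3 are stretches of 150 bases, 3 kb into the genes with the longest runs of members, read on the coding strand in assembly ASM294v3: tel1 (chrIII:1274392-1274541, minus strand), ptr1 (chrI:5211640-5211789, plus strand) and mak3 (chrIII:1943315-1943464, plus strand). The fourth is the 150-base stretch just before tel1 (chrIII:1277542-1277691, minus strand), shown because its level was not low.
tel1 body: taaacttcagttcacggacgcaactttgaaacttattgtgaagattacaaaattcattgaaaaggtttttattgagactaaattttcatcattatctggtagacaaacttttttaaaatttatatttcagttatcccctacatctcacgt
ptr1 body: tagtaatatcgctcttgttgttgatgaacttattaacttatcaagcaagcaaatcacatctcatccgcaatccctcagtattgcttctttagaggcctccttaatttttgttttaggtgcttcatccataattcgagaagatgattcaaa
mak3 body: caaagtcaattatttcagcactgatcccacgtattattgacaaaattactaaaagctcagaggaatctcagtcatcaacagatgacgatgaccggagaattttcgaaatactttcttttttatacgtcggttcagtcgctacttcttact
tel1 upstream: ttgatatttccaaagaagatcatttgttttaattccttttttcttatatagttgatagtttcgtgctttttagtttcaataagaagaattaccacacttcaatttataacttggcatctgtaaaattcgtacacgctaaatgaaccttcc
The tel1 body and upstream stretches had the same GC content, 28.7%. Around the body stretch the H3-T7 level, a log2 ratio to the array median, was -0.96 in clr3-CDx2 ON, -0.81 in wt ON, -0.84 in clr3-CDx2 OFF and -1.12 in wt OFF. Around the upstream stretch it was 0.0656, 0.25, -0.0516 and 0.0666 on the same arrays. The remaining sequences are tRNA genes at the lowest run on chromosome II and at a low run on chromosome III. They are a tyrosine tRNA gene (chrII:1598511-1598594, plus), a leucine tRNA gene (chrII:1598745-1598845, minus), an aspartate tRNA gene (chrIII:1068029-1068099, plus) and an arginine tRNA gene (chrIII:1068182-1068254, minus). Capitals mark a match to a form of the B box (GGTTC, any base, A, any 2 bases, CC), the internal promoter element that RNA polymerase III factors bind. The tyrosine gene has no match to these letters.
SPBTRNATYR.02: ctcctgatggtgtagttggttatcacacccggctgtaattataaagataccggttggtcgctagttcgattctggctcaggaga
SPBTRNALEU.06: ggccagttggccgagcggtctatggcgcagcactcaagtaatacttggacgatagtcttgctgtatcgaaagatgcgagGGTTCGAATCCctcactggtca
SPCTRNAASP.05: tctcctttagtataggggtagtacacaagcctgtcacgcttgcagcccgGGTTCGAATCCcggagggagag
SPCTRNAARG.11: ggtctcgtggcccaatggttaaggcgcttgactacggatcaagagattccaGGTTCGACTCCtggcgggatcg

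Members were low on every array. They averaged -0.91 in clr3-CDx2 ON (SD 0.26 over probes), -0.91 in wt ON (SD 0.35), -0.89 in clr3-CDx2 OFF (SD 0.28) and -0.92 in wt OFF (SD 0.29), while the other internal probes averaged close to 0. Of the 749 members, 744 (99.3%) lay below 0 on all 4 arrays, against 26.9% of all internal probes. In the lowest 10% of every array there were 629 members (84.0%), and in the lowest 2% of every array 62 (8.28%). The exact rank therefore varied between arrays. The rule chose members by the mean of these same arrays, so low values on each of them are partly built in. The SD over the 4 arrays had a median of 0.22 for members and 0.20 for other internal probes. The separate channels show where the ratio came from: the median log2 Cy5 signal was lower in members by 0.73 to 0.81, and the Cy3 input was higher by 0.0956 to 0.15. Most of the low ratio was thus in the ChIP channel.

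**Figure D1:**
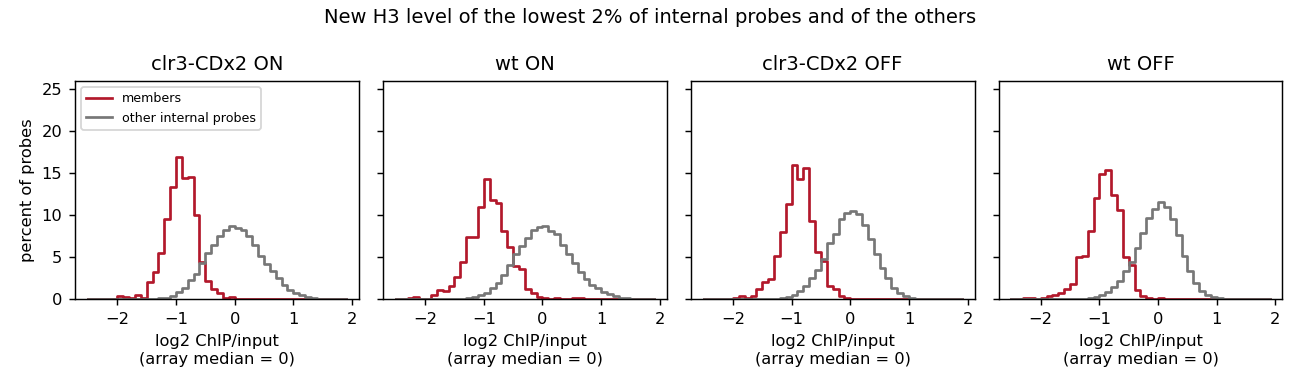
Distribution of the log2 ChIP/input ratio (array median at 0) on each of the 4 arrays, as percent of probes in steps of 0.1, for the 749 members and the 36602 other internal probes. Values past the ends of the axis are counted in the end steps. The members centre near -0.9 on every array and the others near 0.

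The low level was also read on arrays that took no part in a choice. Probes chosen on the 2 OFF arrays averaged -0.76 on the 2 ON arrays, where 98.3% were below 0 and 84.8% in the lowest 10%. Probes chosen on the ON arrays averaged -0.74 on the OFF arrays. Chosen on the wt arrays and read on the clr3-CDx2 arrays the mean was -0.82, and in the reverse direction -0.84. With 1 array left out of the choice, that array read -0.79 to -0.85. On arrays not used, the mean was nearer to 0 than on the arrays used (-0.96 on the OFF arrays and -0.97 on the ON arrays). Of the 749 members, 514 were also among those chosen on the OFF arrays and 497 among those chosen on the ON arrays.

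Members formed 203 runs of neighbouring probes, with gaps of at most 900 bp. Of these runs, 49 held 1 probe, 39 held 2, 62 held 3 or 4, 44 held 5 to 9 and 9 held 10 or more. The 9 longest runs held 124 members. Chromosome III had the largest share of its internal probes among members, 3.28% (221 members in 60 runs), against 1.73% on chromosome I (295 in 81) and 1.72% on chromosome II (233 in 62). Run means differed between arrays with a median SD of 0.18, and of 0.15 for the 115 runs of at least 3 probes. In 112 of these 115 runs the mean was below -0.5 on all 4 arrays.

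Members lay in long protein-coding genes more often than internal probes did. Of the 749, 614 (82.0%) lay in protein-coding genes, close to the 79.9% of all internal probes. Within genes they lay in coding sequence: 570 members (76.1%) against 58.8% of internal probes, while untranslated regions and introns held 5.87% against 21.1%. Genes of 5 kb or more held 378 members, 50.5% (95% Clopper-Pearson interval 46.8 to 54.1, counting error only), against 7.76% of internal probes. Neighbouring probes are not independent, so this interval is too narrow. The share of probes that were members was 0.209% in genes under 1 kb, 0.282% at 1 to 2 kb, 0.583% at 2 to 3 kb, 2.02% at 3 to 5 kb and 13.0% at 5 kb or more. The median length of the genes that members lay in was 5546 bp, against 2438 bp for other probes in genes.

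Counted by gene, 154 of 3982 protein-coding genes with at least 3 internal probes (3.87%) had a member. This was 62 of 141 genes of 5 kb or more (44.0%) and 21 of 31 genes of 7 kb or more (67.7%), against 0 of 251 genes under 1 kb. Longer genes carry more probes and so more occasions to hold a member, which makes part of this difference built in. The shares of probes by gene length given above do not depend on the number of probes in a gene. Mean level was lower in longer classes on each array, except that in wt OFF genes of 1 to 2 kb (0.12) lay above those under 1 kb. It was 0.17 under 1 kb and -0.32 at 5 kb or more in clr3-CDx2 ON, 0.13 and -0.30 in wt ON, 0.0757 and -0.28 in clr3-CDx2 OFF, and 0.10 and -0.31 in wt OFF. Across the 3982 genes, Spearman's rho between length and mean level was -0.28, and -0.21 to -0.30 on single arrays. Genes share arrays and neighbours, so these correlations are descriptions.

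Within genes of 5 kb or more, members lay mainly in the early to middle part of the body and seldom at the start itself. Of the probes in the first 0.5 kb, 3.02% were members. The share was 21.6% between 1 and 2 kb from the start and 21.6% between 2 and 3 kb, and 7.36% between 4 and 6 kb. Within 0.5 kb of the gene end it was 0.424%, 1 of 236 probes. In 5 equal parts of the gene from start to end, the shares were 10.2%, 26.7%, 21.9%, 6.19% and 0.34%. The median member lay 2553 bp from the start and 4523 bp from the end. The mean level followed the same course on the arrays: between 1 and 2 kb from the start it was -0.52 in clr3-CDx2 ON, -0.39 in wt ON, -0.48 in clr3-CDx2 OFF and -0.47 in wt OFF. In the last 0.5 kb it was 0.0684, 0.0167, 0.0944 and 0.0525, near the array median in each.

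**Figure D2:**
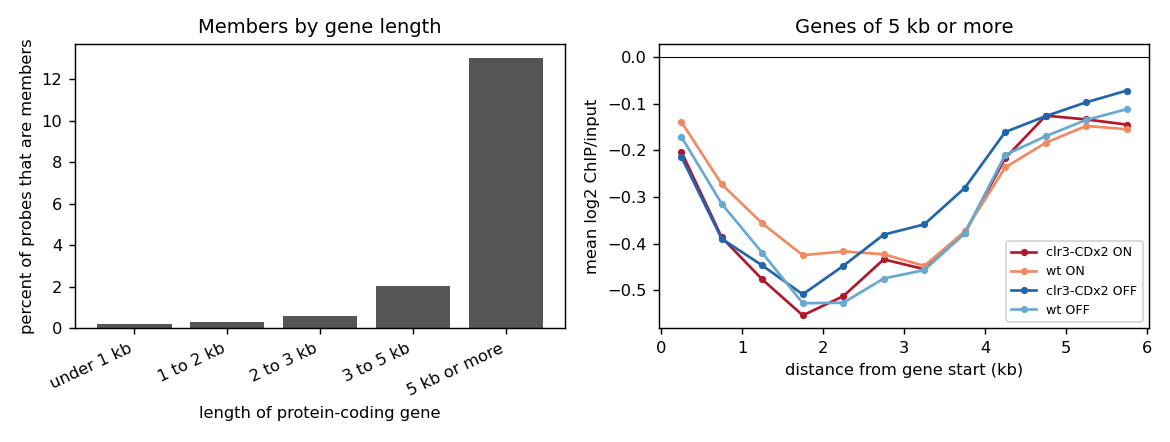
Left, the percent of internal probes in protein-coding genes that are members, by gene length, with 13.0% in genes of 5 kb or more. Right, the mean log2 ChIP/input ratio of genes of 5 kb or more in steps of 0.5 kb from the gene start, 1 line per array, lowest between 1 and 4 kb on each.

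The longest run covered tel1, which encodes the ATM checkpoint kinase. It held 19 of the 30 probes of the gene, from 1856 to 7256 bp after its start. The run averaged -0.96 in clr3-CDx2 ON, -1.04 in wt ON, -0.84 in clr3-CDx2 OFF and -1.07 in wt OFF, and the 11 other probes of the gene -0.23, -0.21, -0.25 and -0.31. The low stretch was therefore internal to the gene on all 4 arrays. The next run lay in ptr1, which encodes an E3 ubiquitin ligase. It held 18 of 34 probes and averaged -0.98, -0.81, -0.91 and -1.26 in the same order of arrays. Its first probe was placed 50 bp after the gene start. On this arm the placement had an SD of 105 bp over blocks, so the run may also begin before the gene. The sensor kinase gene mak3 followed with 14 of 24 probes (-0.998 in clr3-CDx2 ON, -0.86 in wt ON, -0.97 in clr3-CDx2 OFF and -1.16 in wt OFF). A second sensor kinase gene, mak2, had 13 of 23 probes in a run at -1.03 in clr3-CDx2 ON, -1.04 in wt ON, -0.92 in clr3-CDx2 OFF and -0.74 in wt OFF. In ptr1 and mak3 wt OFF was the lowest array, whereas in mak2 it was the highest.

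**Figure D3:**
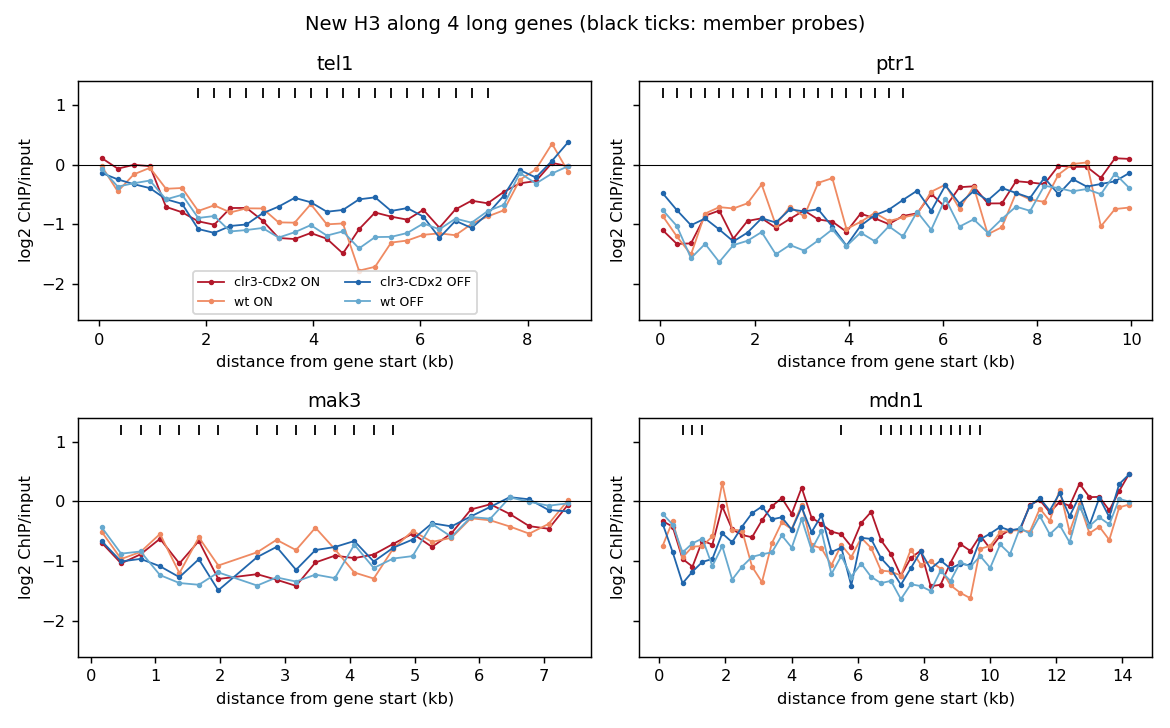
Log2 ChIP/input ratio of each probe along tel1, ptr1, mak3 and mdn1 against the distance from the gene start in kb, 1 line per array, with black ticks over member probes. In tel1 the 19 members span 1856 to 7256 bp and both ends of the gene lie nearer to 0.

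Other genes with the longest runs were tra2, a phosphatidylinositol kinase-like protein gene (13 of 39 probes), mok12, which encodes a glucan synthase of the spore wall (13 of 26), dhc1, the dynein heavy chain gene (12 of 41), and hob2 (11 of 28). The mdn1 gene, for midasin, an ATPase of ribosome assembly, had 15 members among 48 probes in more than 1 run. Its longest run, of 11 probes, averaged -0.95 in clr3-CDx2 ON, -1.17 in wt ON, -1.04 in clr3-CDx2 OFF and -1.29 in wt OFF. Among the 10 longest runs, the one at utp21, a gene of the U3 snoRNP, extended towards asp1. It averaged -1.19 in clr3-CDx2 ON, -0.71 in wt ON, -0.85 in clr3-CDx2 OFF and -0.80 in wt OFF. In all, 42 genes had at least 5 members and together held 354 (47.3%). Not every long gene had a member, and 10 genes of 7 kb or more had none. Even so, 29 of the 31 genes of that length (93.5%) had a mean below 0 over the arrays. Among the 10 without a member, swi1 had 4 internal probes and SPBPJ4664.02 had 10. The 10 also include, singled out after their values were seen, rad3, the ATR kinase gene (-0.25 over 31 probes), and glt1, the glutamate synthase gene (0.16 over 25 probes). The longest gene, sib1, for ferrichrome synthetase (15232 bp), had 1 member among 50 probes.

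Of the 15 runs with the lowest levels, several lay between genes. The lowest of all, of 2 probes (chrII:1599000-1599300 in array coordinates), lay at the tRNA genes printed above, between rpb1, for the largest subunit of RNA polymerase II, and yox1. It lay 700 bp from the block left out at the centromere of chromosome II and averaged -0.89 in clr3-CDx2 ON, -1.46 in wt ON, -1.59 in clr3-CDx2 OFF and -1.59 in wt OFF. A run of 4 probes at the chromosome III tRNA genes, 1100 bp from the centromere block and between chk1 and ppc1, averaged -0.96, -1.60, -1.03 and -1.01. The outlying array differed: clr3-CDx2 ON was the highest at the first and wt ON the lowest at the second.

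Probes near tRNA genes were members more often than internal probes as a whole. Within 300 bp of a tRNA gene, 21 of 254 internal probes were members (8.27%, against 2.01% of all internal probes), in 13 runs. Of 28 probes inside tRNA genes 2 were members, and of 13 probes in rRNA genes 0. In 300-bp windows between genes, this B box form on either strand was found at 3.70% of members (5 of 135) and at 1.14% of all internal probes there. Over all 300-bp windows it was 0.801% for members and 0.554% for internal probes. Runs of 8 A or 8 T, which can disfavour nucleosomes, were found in 12.02% of member windows and 15.2% of all windows, and between genes in 33.3% and 27.3%. Mean GC content of 300-bp windows was 35.9% for members and 36.2% for others, and in coding sequence 36.9% (SD 3.18) and 39.0% (SD 4.04).

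Other low runs lay in or beside genes of varied function. At vps28, of the ESCRT-I complex, all 4 probes of the gene were members, at -1.23 in clr3-CDx2 ON, -1.03 in wt ON, -1.29 in clr3-CDx2 OFF and -1.23 in wt OFF. Between hxk2, a hexokinase gene, and mrps12 a run of 3 probes averaged -1.28, -1.05, -1.39 and -1.31. The SD between arrays was 0.11 at vps28 and 0.15 at hxk2, against a median of 0.15 over runs of at least 3 probes. A run of 7 probes in rgf2, which encodes an activator of the GTPase Rho1, averaged -1.16 in clr3-CDx2 ON, -0.96 in wt ON, -1.01 in clr3-CDx2 OFF and -1.08 in wt OFF. Runs in not1, the CCR4-Not scaffold gene (7 probes, mean over arrays -1.03), spo15, a spindle pole body gene (8 probes, -1.01), and at the RasGEF gene ste6, with 3 of its probes in the gene and the others between it and ptl1 (6 probes, -1.04), were of like depth. A run of 2 probes beside frg1 was more variable, at -1.70, -1.25, -0.81 and -1.08. Its ON minus OFF difference was 0.59 in log2 Cy3 and 0.0584 in log2 Cy5, and the part of input was not tested. A run of 3 probes between usp102 and the hexose transporter gene ght2 averaged -0.84, -1.10, -1.13 and -1.10.

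The lists of chromatin and other genes differed in the share of genes with a member, on small counts. Of 18 measured genes with heterochromatin islands or targeted by Mmi1, 0 had one, and of 20 genes of the silencing machinery 0, against 3.87% of all genes. Of 4 measured histone genes, 1 had a member (25%). This was pht1, for the variant H2A.Z, with 1 member among 4 probes, in a run with 1 probe near a tRNA gene. The pht1 gene averaged -0.60 in clr3-CDx2 ON, -0.49 in wt ON, -0.56 in clr3-CDx2 OFF and -0.31 in wt OFF. It was the only 1 of the 4 histone genes below 0 in the mean over arrays. Their median level was 0.495 and the highest 0.769. Of 15 genes for replication and chromatin remodelling 2 had members (13.3%), the CHD remodeller gene hrp3 (2 of 16 probes) and the SWI/SNF gene snf22 (2 of 22). Of 17 measured ribosomal protein genes 0 had one. With lists of this size, these counts do not separate the lists from other genes. The lists also differed in median gene length, from 870 bp for ribosomal protein genes to 4013 bp for replication and chromatin remodelling. Longer genes had a member more often, and the counts were not adjusted for length. Outside the lists, and singled out after its values were seen, ers1, for an RNA-silencing factor, had 6 members among 12 probes and averaged -0.94 in clr3-CDx2 ON, -0.92 in wt ON, -0.82 in clr3-CDx2 OFF and -0.64 in wt OFF.

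ON minus OFF, over both genotypes, asks where Clr4 tethering with its change of medium went with a different level. The rule used the mean over arrays and not their differences. Limma, fitted to all internal probes, called 15 members higher in ON (2.00%, against 5.82% of all internal probes) and 10 lower (1.34%, against 2.47%). The called members lay in 7 runs higher and 8 lower. Both shares were below the background, but with equal median absolute deviation of the arrays limma called 34 higher (4.54%, against 3.86%) and 3 lower (0.401%, against 1.96%). Without the variance trend, 27 were lower (3.60%, against 2.40%), and without a genotype term 6 were (0.801%, against 0.613%), or 16 when clr3-CDx2 ON was also left out (2.14%, against 1.53%), so the place of the members beside the background depends on the setting. The median difference was -0.0243 for members (0.18 with the equal median absolute deviation) and 0.0196 for all internal probes. At an unadjusted p below 0.05 there were 38 (5.07%, against 13.5% of internal probes) and 43 (5.74%, against 8.54%). The scanner software detrended Cy5 on the OFF arrays alone, and on signals without detrending and dye scaling limma called 13 and 7. Each probe had 1 residual degree of freedom, and the prior was infinite, so that the spread came wholly from its trend over probes. With normexp background correction limma called 0 and 0 members, and with no genotype term and without the wt OFF array 1 and 0.

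The run with most calls lay between SPAC27E2.03C and mug155 (chrI:4003500-4005600 in array coordinates), over SPAC27E2.11C. Its 8 probes averaged -1.05 in clr3-CDx2 ON, -0.73 in wt ON, -1.57 in clr3-CDx2 OFF and -1.88 in wt OFF. Both ON arrays lay above both OFF arrays, and all 4 stayed below the array median. Of its 8 probes 7 were called higher in ON, the clearest by 1.01 (SE 0.26, adjusted p = 0.00337, limma). ON minus OFF was 0.52 in clr3-CDx2 and 1.15 in wt. The 25 other probes within 4 kb averaged 0.42 in clr3-CDx2 ON, 0.51 in wt ON, 0.0814 in clr3-CDx2 OFF and 0.0504 in wt OFF. The ON arrays were thus also higher outside the run, mainly on the side of higher coordinates. On that side both ON arrays lay above both OFF arrays at every probe, and on the other side the order was mixed.

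**Figure D4:**
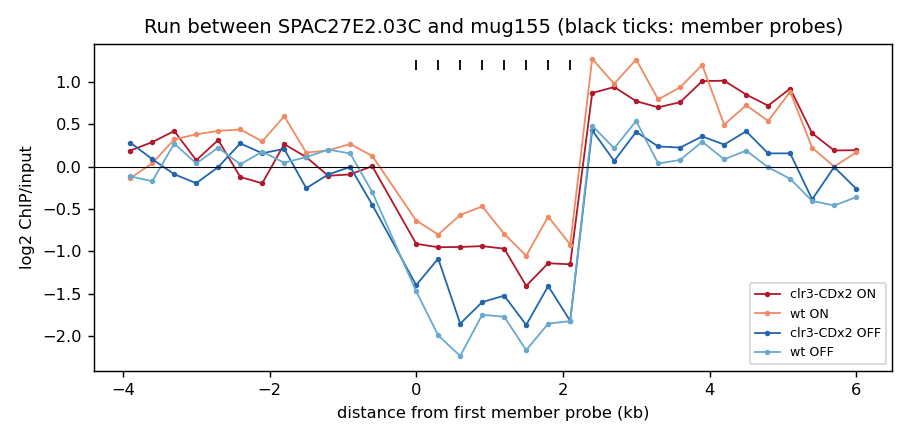
Log2 ChIP/input ratio of each probe in and within 4 kb of the run between SPAC27E2.03C and mug155, against the distance in kb from its first member, 1 line per array, with black ticks over the 8 members. The members average -1.05 and -0.73 on the ON arrays and -1.57 and -1.88 on the OFF arrays.

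The smallest adjusted p belonged to a probe between SPCC61.05 and cbl1, at -0.0953 in clr3-CDx2 ON, -0.78 in wt ON, -1.34 in clr3-CDx2 OFF and -1.34 in wt OFF. It rose by 0.93 (SE 0.20, adjusted p = 0.000319, limma). Other members called higher lay at SPAC25B8.12C, beside the aldehyde dehydrogenase gene atd1, in sea3, in hip3, for a histone chaperone, and between ldb1 and sol1 (2 probes). The run at atd1 averaged -0.84 in clr3-CDx2 ON, -0.76 in wt ON, -1.01 in clr3-CDx2 OFF and -1.63 in wt OFF. There wt OFF stood apart from the other 3 arrays.

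Members called lower in ON included 2 between tif310 and cam1, the calmodulin gene. The stronger was at -1.91 in clr3-CDx2 ON, -2.15 in wt ON, -0.82 in clr3-CDx2 OFF and -0.49 in wt OFF, and fell by 0.88 on the log2 scale of the fit, which averages 3 neighbouring probes (SE 0.21, adjusted p = 0.00205, limma). At mrp49, for a mitochondrial ribosomal protein, 2 members were called lower. The run of 4 probes averaged -0.88 in clr3-CDx2 ON, -1.38 in wt ON, -0.61 in clr3-CDx2 OFF and -0.65 in wt OFF. Single members were called lower in sec71, atg2 (autophagy), brl2 (ubiquitin ligase for histone H2B) and sec15 (exocyst), between lto1 and gst1, and between ost5 and rpc53. The calls rest on running means of 3 probes, so a member's own change can be smaller. At brl2 the fitted difference was -0.695. The member itself was at -0.94 in clr3-CDx2 ON, -0.98 in wt ON, -0.86 in clr3-CDx2 OFF and -0.525 in wt OFF. Input moved with some of these runs, and its part in the calls was not tested. ON minus OFF of the lto1 and gst1 run was 0.59 in log2 Cy3 and -0.14 in log2 Cy5, and that of the ost5 and rpc53 run 0.27 and -0.30. Among runs with members called higher, the Cy3 and Cy5 differences were -0.31 and 0.55 between SPCC61.05 and cbl1 and -0.21 and 0.16 in sea3. They were -0.0494 and 0.78 at the run beside mug155. None of the 10 longest runs had a called member.

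**Figure D5:**
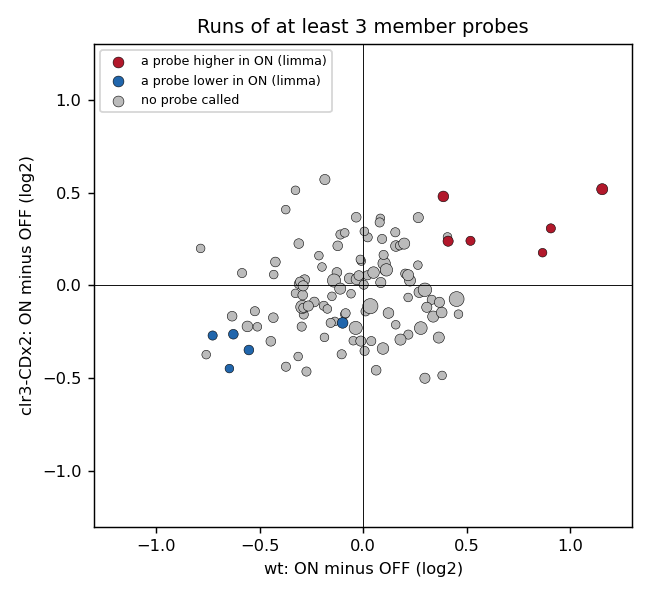
ON minus OFF difference of the log2 ratio for the 115 runs of at least 3 members, in wt (x axis) and clr3-CDx2 (y axis), which share no array; larger points hold more probes. Colours mark runs with a probe called higher or lower by limma, and the run farthest to the right, at 1.15 in wt and 0.52 in clr3-CDx2, is the one beside mug155.

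Within each genotype there is 1 array a state and no test. In clr3-CDx2, 17 members were at least 1.5-fold higher in ON (2.27%, background 2.88%) and 25 lower (3.34%, background 2.25%). In wt, 46 were higher (6.14%, background 4.45%) and 33 lower (4.41%, background 2.06%). With equal median absolute deviation the counts were 47 higher and 8 lower in clr3-CDx2 (background 2.35% and 1.84%), and 108 higher and 9 lower in wt (background 4.28% and 1.72%). In clr3-CDx2 the median of the members' differences was -0.0334, or 0.14 with that scaling. In wt it was -0.000219, or 0.23, so the direction depends on the scaling.

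The clr3-CDx2 against wt comparison asks whether the altered deacetylase gene went with another level at these regions. Limma over both tethering states called 0 members higher (background 0.286%) and 0 lower (background 0.0884%), with 17 (2.27%, against 4.04% of internal probes) and 6 (0.801%, against 3.93%) at an unadjusted p below 0.05 and a smallest adjusted p of 0.128. Without the variance trend it called 3 higher. The median difference was 0.0086 for members and -0.00939 for all internal probes. In ON cells, 14 members were at least 1.5-fold higher in clr3-CDx2 (1.87%, background 1.09%) and 7 lower (0.935%, background 1.42%). In OFF cells, 17 were higher (2.27%, background 0.996%) and 4 lower (0.534%, background 0.442%). Among runs of at least 3 probes, the one with the largest mean difference upward in limma lay in gcn1, a regulator of translation, at -0.61 in clr3-CDx2 ON, -1.01 in wt ON, -0.34 in clr3-CDx2 OFF and -1.23 in wt OFF. The largest difference downward among them lay in pol1, for the catalytic subunit of DNA polymerase alpha, at -1.09, -0.49, -1.02 and -0.82. Both clr3-CDx2 arrays lay above both wt arrays at gcn1 and below both at pol1, and neither run had a member that passed limma.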

How the data were processed

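Per the labels' protocols, Cy5 is ChIP DNA and Cy3 input. The deposited scanner files, made with Agilent Feature Extraction 12.0.3.1 per the file headers, give processed intensity after subtraction of background and scaling between dyes. They also hold a log10 ratio, per the file headers, not used here. Flags of 0 or 1 deposited by the authors marked outliers, and 531 spots were left out. The deposited series matrix holds log2 of the same Cy5 over Cy3 intensity for 100% of probes (tolerance 1e-6). Multiplicative detrending covered Cy3 on every array and Cy5 on the OFF arrays, per the file headers.

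Median spot signal was 7071 to 13940.5 in Cy3 (background 37 to 43) and 4447 to 7696.25 in Cy5 (54 to 64). Between 0 and 5 spots of an array did not clear the background flag, and 0 were saturated. Precision is limited by the number of arrays.

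The genome build behind the array positions was not given in the sources used here. Genes of ASM294v3 were placed on each chromosome arm by matching input signal to GC content (multiple correlation 0.237 to 0.313, against at most 0.076 at other offsets). The SD over blocks, searched only near the chosen offset, was 24 to 105 bp. The offset added to array positions ran from -1620 bp on the right arm of chromosome II to 4560 bp on the right arm of chromosome I. Array coordinates printed here therefore differ from assembly coordinates. Limma 3.58.1 (R 4.3.3) fitted tethering and genotype, without interaction, to running means of 3 probes over all internal probes, with a variance trend and Benjamini-Hochberg adjustment. The fit was also run on simulated probes that were independent and had equal noise. Running means of neighbouring probes are neither, so that run does not check the calls given here. Normexp (offset 50) used median spot and background signals, since the files have no mean signal column. Members and lists were chosen with earlier results of these data known. Named genes are those at the 15 lowest and 10 longest runs, at the 5 runs of at least 3 probes in each direction with the largest limma differences, and members at list genes. Other members that limma called in ON minus OFF were also named, and these were picked by their calls. The gene sib1 was named as the longest, and the genes said to be singled out were picked by their values. The lowest runs were ranked by running median; the unsmoothed mean would exchange 3 of the 15. Samples were grouped by their titles.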

Additional observations from a re-analysis of the deposited data

Results flagged for a closer look

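Each group has 1 array, so a run is listed here when its difference had opposite signs in the compared groups, however small, and none of these differences was tested. All values are differences of log2 ratios. Of 38 named runs, 14 had opposite signs of ON minus OFF in the 2 genotypes, and 0 of them were at least 1.5-fold in both. At the run between chk1 and ppc1, ON minus OFF was 0.0665 in clr3-CDx2 and -0.58 in wt. At rgf2, ON minus OFF was -0.15 in clr3-CDx2 and 0.12 in wt. At spo15, ON minus OFF was -0.17 in clr3-CDx2 and 0.34 in wt. At tel1, ON minus OFF was -0.11 in clr3-CDx2 and 0.0345 in wt. At ptr1, ON minus OFF was -0.0737 in clr3-CDx2 and 0.45 in wt. The mak3 run stood at -0.0237 in clr3-CDx2 and 0.30 in wt. The mok12 run stood at 0.0261 in clr3-CDx2 and -0.14 in wt. The dhc1 run stood at -0.23 in clr3-CDx2 and 0.28 in wt. The utp21 run stood at -0.34 in clr3-CDx2 and 0.0955 in wt. The gcn1 run stood at -0.27 in clr3-CDx2 and 0.22 in wt. The utp10 run stood at 0.00757 in clr3-CDx2 and -0.31 in wt. The pol1 run stood at -0.0775 in clr3-CDx2 and 0.33 in wt. The tor1 run stood at 0.0991 in clr3-CDx2 and -0.20 in wt. A run of 3 probes near the start of mdn1 stood at 0.28 in clr3-CDx2 and -0.0891 in wt.

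For clr3-CDx2 minus wt, 16 of 38 named runs had opposite signs in ON and OFF cells, and 0 were at least 1.5-fold in both. At SPAC27E2.11C, clr3-CDx2 minus wt was -0.32 in ON and 0.31 in OFF. At the run between SPBP23A10.11C and frg1, clr3-CDx2 minus wt was -0.45 in ON and 0.27 in OFF. At the run between chk1 and ppc1, clr3-CDx2 minus wt was 0.63 in ON and -0.0195 in OFF. At rgf2, clr3-CDx2 minus wt was -0.20 in ON and 0.0664 in OFF. At atd1, clr3-CDx2 minus wt was -0.0733 in ON and 0.62 in OFF. The spo15 run stood at -0.16 in ON and 0.35 in OFF. The run between usp102 and ght2 stood at 0.26 in ON and -0.0291 in OFF. The ptr1 run stood at -0.17 in ON and 0.35 in OFF. The mak3 run stood at -0.14 in ON and 0.18 in OFF. The tra2 run stood at -0.14 in ON and 0.0566 in OFF. The mak2 run stood at 0.00249 in ON and -0.18 in OFF. The dhc1 run stood at -0.42 in ON and 0.0901 in OFF. The SPAC25B8.12C run stood at -0.24 in ON and 0.36 in OFF. The sec15 run stood at 0.0959 in ON and -0.10 in OFF. The pof4 run stood at 0.0914 in ON and -0.29 in OFF. The atg2 run stood at 0.32 in ON and -0.0459 in OFF.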

How the results depend on the processing

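No paired analysis was possible because each group is 1 array, so no replicates pair; the genotype term already sets ON against OFF within each genotype. The 203 runs became 403 without the running median, 120 with the lowest 1% of probes and 473 with the lowest 5%, which follows from their construction. The other settings gave 139 to 288 runs, and leaving out 1 array gave 206 to 219. With normexp 340 of 749 members were chosen again. The share of members in genes of 5 kb or more, 50.5%, was 41.1% with genes placed at array coordinates without an offset. Settings added after seeing the data gave 46.8% with members chosen on the OFF arrays, 44.3% without the running median and 39.4% with the lowest 5%, and 47.0% to 52.1% without each array. It was above the 7.76% of internal probes in each of these.

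The limma calls of members in ON minus OFF (15 higher, 10 lower) were less stable. They were 0 and 0 with normexp (background 0.487% and 0.112%; 13 and 5 at an unadjusted p below 0.05), and 34 and 3 with equal median absolute deviation (3.86% and 1.96%). They were 7 and 6 without the genotype term (2.27% and 0.613%) and 28 and 27 without the variance trend (4.75% and 2.40%). With no genotype term and 1 array left out, limma called 1 to 17 higher and 0 to 16 lower: 1 and 0 without wt OFF, 6 and 0 without clr3-CDx2 OFF, 3 and 5 without wt ON, 17 and 16 without clr3-CDx2 ON. With equal median absolute deviation the median difference of members was 0.18, against -0.0243, so their direction depends on the scaling. For clr3-CDx2 minus wt, limma called 1 member lower on single probes and 3 higher without the variance trend, and 0 under the other settings. Members at least 1.5-fold different either way, with normexp, numbered 19 (not 42) for ON minus OFF in clr3-CDx2, 47 (not 79) in wt, 36 (not 21) for clr3-CDx2 minus wt in ON and 13 (not 21) in OFF. With equal median absolute deviation the last 2 were 12 and 44. The cause was not tested.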
